A study of Mus musculus with 33 samples.

Results

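The 6 genes described here, Cxcl1, Cxcl2, Cxcl3, Cxcr2, Ccrl2 and Prok2, were taken by name from the 32285 genes of the deposited count tables and followed per sample across cell classes, tissues and biotin sorts. The series applied SAMENT, a niche labelling method in which cells are marked with biotin during an overnight substrate step, to mouse tissues, and profiled biotin positive and biotin negative cells by droplet single-cell RNA sequencing. In the intracardiac-injection arm, bone (femur and tibia), brain, liver and lung were each sorted into a biotin positive and a biotin negative fraction, with 4 samples per tissue and sort, 32 samples in all. In the iia-injection arm, 1 pooled bone library carried 12 hashtagged samples, 6 biotin positive and 6 biotin negative, numbered 1 to 6 in each sort. All groups carry an injection in their labels and went through the labelling step, so no uninjected group was compared. Strain, age, genotype and the injected cells are not given in the labels used here, nor is it stated whether samples of a group came from separate animals, and p-values therefore measure the spread between these samples, which may be technical. The biotin negative cells come from the same labelled organs and are not cells of untreated tissue.

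Cxcl1, Cxcl2 and Cxcl3 encode small secreted chemokines with an ELR motif that draw neutrophils to a site, and all of them bind CXCR2, a receptor of mature neutrophils that also takes part in their release from bone marrow. Transcription of these ligands is known to rise quickly through NF-kappaB after inflammatory stimuli such as IL-1 or TNF. CCRL2 is an atypical receptor that binds chemerin and presents it to neighbouring cells, and it is induced in activated neutrophils and macrophages, while PROK2, also called Bv8, is a secreted prokineticin made by myeloid cells and linked to granulocyte mobilisation and vessel growth.

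The 3 ligand genes lie in 1 cluster on chromosome 5, and the windows just before their RefSeq start sites are shown because neutrophils of liver and lung carried more of all 3 ligands than those of bone. Each window is the last 100 bases before the start on the + strand of GRCm38.p6, the build of the mm10 assembly named in the submitters' processing notes: chr5:90891145-90891244 for Cxcl1, chr5:90903799-90903898 for Cxcl2 and chr5:90786001-90786100 for Cxcl3. Capitals mark GGGAATTTCCC, the longest string that the 3 windows share, which holds a kappaB-type sequence.
Cxcl1: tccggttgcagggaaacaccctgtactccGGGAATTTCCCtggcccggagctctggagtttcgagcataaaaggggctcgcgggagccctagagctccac
Cxcl2: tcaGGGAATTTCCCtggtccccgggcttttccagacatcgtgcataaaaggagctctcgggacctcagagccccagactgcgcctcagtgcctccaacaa
Cxcl3: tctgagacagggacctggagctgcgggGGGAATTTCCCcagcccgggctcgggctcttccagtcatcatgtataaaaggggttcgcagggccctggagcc
The string began 71 bases before the start of Cxcl1, 97 before that of Cxcl2 and 73 before that of Cxcl3. The string was chosen from these windows, so its presence in them is given. Searched on both strands, it was found in 5 of the 32851 RefSeq windows of 100 bases, a share of 0.0152%, and in 14, or 0.0426%, when the window was widened to 250 bases. It was not found in either window of Cxcr2, Prok2 or the 3 start sites of Ccrl2. These matches are a description of the letters and not evidence of binding.

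After filters on UMIs (unique molecular identifiers, the counted RNA molecules), genes and mitochondrial share, 55366 cells remained in the intracardiac arm, between 94 and 3505 per sample and between 482617 and 44834665 UMIs per sample. Levels are given in CPM, a gene's UMIs in the summed cells of a sample scaled to 1000000 UMIs. The iia-injection arm gave 22362 cells, 249 to 3480 per sample. Neutrophils made up 4.5% to 77.8% of the cells of the biotin negative intracardiac samples and 3.1% to 69.1% of the biotin positive ones, so that sums over all cells also carry the make-up of each sample. In such sums, fewer cells of a type and less RNA per cell cannot be told apart. Samples with the same number in different groups shared 0 barcodes over 112 pairs of samples, and samples with different numbers shared 341 over 384 pairs. Same-numbered samples also list the same sample tags, so the number is taken to mark a shared library, and values with the number as a block are given where they change a call. Shares of all genes called are given for the main edgeR fits only. Calls under the block, DESeq2 or other settings therefore have no background beside them. The cell classes were built by clustering without the 6 genes and 28 related pathway genes, and their names mean resemblance to marker lists only. All 19 detected neutrophil markers were higher in the cells called neutrophils than in those called monocytes in the intracardiac arm, and 18 of 19 in the iia-injection arm. The names were given from these same markers, so this is a description and not an independent check of the class.

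In the intracardiac arm, Cxcr2 and Prok2 were largely and Cxcl2 mainly neutrophil transcripts, and Cxcl3, Cxcl1 and Ccrl2 came from several classes. Neutrophils held the largest share of Cxcr2 UMIs in 31 of 32 intracardiac samples, with group means of 73.6% to 92.1%. The exception was 1 sample of biotin positive lung, led by alveolar macrophages. In that group they held 20.6% ± 27.8 of the Cxcr2 UMIs (SD, n = 4), and up to 61.4%. Neutrophils likewise held the largest share of Prok2 UMIs in 31 of 32 samples, with means of 80.0% to 94.6%, and of Cxcl2 UMIs in 28 of 32, with means of 54.3% to 81.7%. For Cxcl3 the count was 22 of 32 samples and for Ccrl2 21 of 32. Neutrophils held a mean of 60.2% to 73.8% of the Cxcl3 UMIs in the biotin negative groups and 42.3% to 58.6% in the positive ones. In biotin positive lung, clusters without a class name held 49.7% ± 32.6 of them (SD, n = 4) beside 42.3% ± 33.8 in neutrophils. Over the pooled UMIs of all 4 samples these shares were 66.6% and 27.4%, and in biotin positive bone they were 66.9% and 23.5%. Cxcl1 stood apart, with neutrophils leading in 7 of 32 samples, macrophages in 8, monocytes in 4 and clusters left without a class name in 12.

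**Figure D1:**
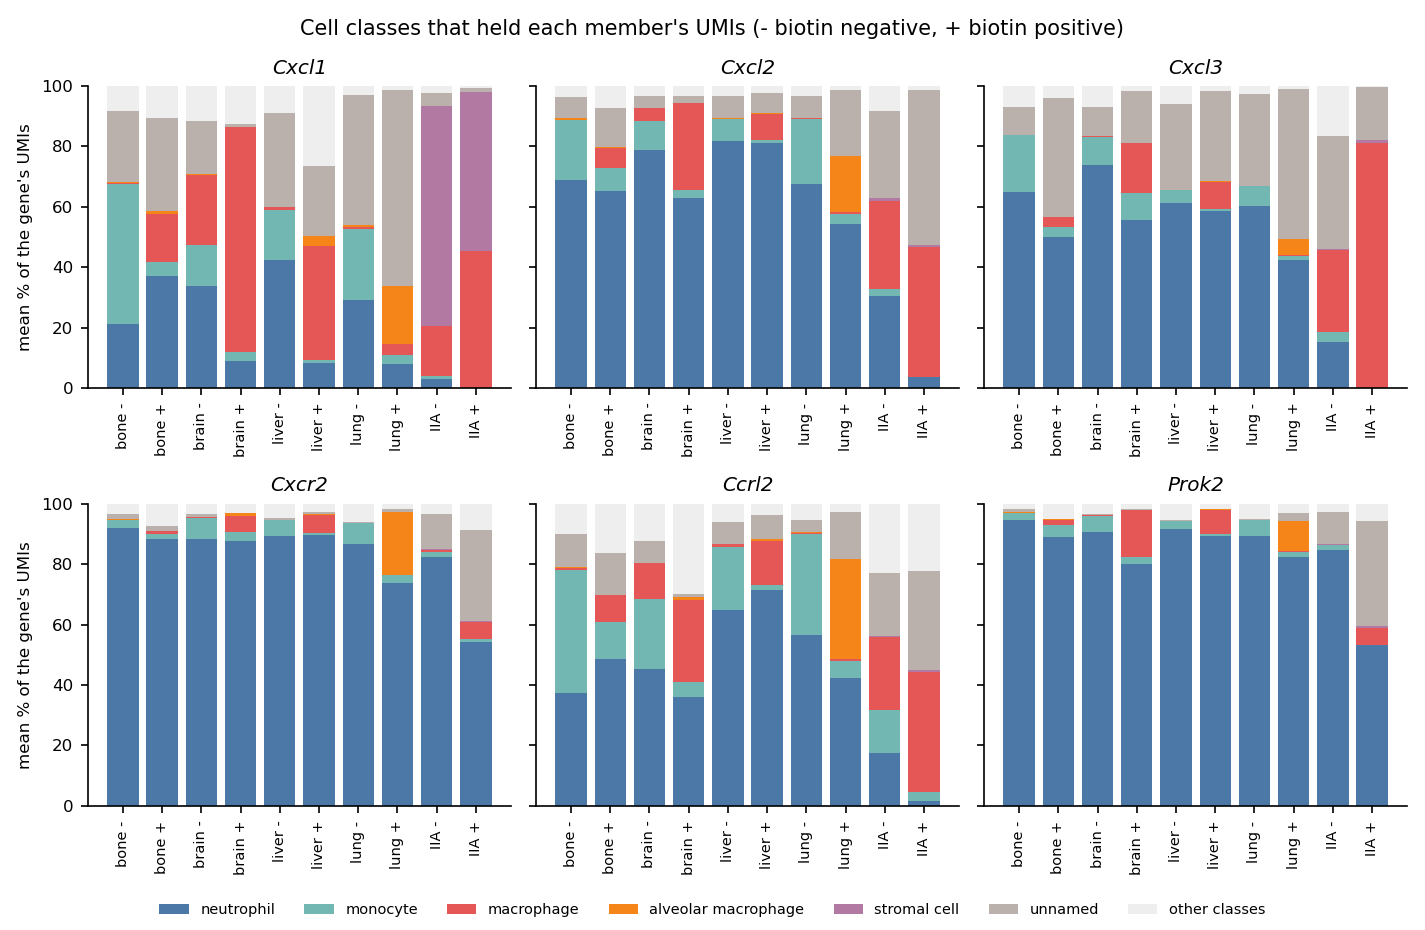
Mean share of each gene's UMIs (y axis, %) held by each cell class in the 8 intracardiac groups and the 2 IIA groups (x axis; - biotin negative, + biotin positive; n = 4 per intracardiac group and up to 6 per IIA group). Neutrophils take most of the Cxcr2 and Prok2 bars, whereas the Cxcl1 bars pass from monocytes and neutrophils to macrophages in biotin positive brain, unnamed cells in biotin positive lung and stromal cells in IIA bone.

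Cxcl1 levels were compared next between classes, as a description, since classes were defined from the same cells. In biotin positive brain, macrophages stood at 18.1, 559, 1087 and 199 CPM in samples 1 to 4, and they held 74.7% ± 19.1 (SD, n = 4) of the gene's UMIs there. In biotin negative brain the same class was at 0, 209, 270 and 94.3, where the 0 came from 20 cells. Sample 1 was the lowest in both sorts, and the other 3 samples of the positive sort spanned a more than 5-fold range. In lung, a set of clusters without a class name was the leading source in 4 of 4 biotin positive and 2 of 4 biotin negative samples, at 1414, 1102, 709 and 483 CPM in the biotin positive samples and 1219, 686, 995 and 305 in the negative ones, which overlapped. Alveolar macrophages of biotin positive lung were lower per cell, at 93.5, 110, 77.4 and 8.97, yet held 19.3% of the Cxcl1 UMIs there and made up 14.7% to 81.2% of the cells. B cells, a class not known to make these chemokines, gave group means of 0 to 22.1 CPM for Cxcl1, so that the bone values of neutrophils (3.23 ± 2.97, SD, n = 4) cannot be told apart from free RNA.

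Cxcl2 and Cxcl3 reached their highest class levels in neutrophils of liver and lung and in the unnamed clusters of lung. Cxcl2 averaged 23732 ± 1661 CPM (SD, n = 4) in neutrophils of biotin negative lung, 13874 ± 3207 in its unnamed clusters and 4205 ± 1363 in its monocytes. In biotin negative brain, macrophages followed neutrophils, at 3885 ± 1799. For Cxcl3 the order in biotin negative lung was reversed, with the unnamed clusters at 2262 ± 1311 and neutrophils at 916 ± 301, 2 ranges that overlapped. B cells carried 229 ± 158 CPM of Cxcl2 in biotin negative bone and 895 ± 257 in biotin negative lung. Their group means ran from 115 to 2440.5 over the 8 intracardiac groups. The B cell signal of this gene thus also moved with the tissue, and whether it was free or misassigned RNA was not tested.

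Cxcr2 in neutrophils ranged from a group mean of 477 ± 107 CPM (SD, n = 4) in biotin positive bone to 1079 ± 268 in biotin positive lung, while group means of B cells lay between 23.3 and 128. Ccrl2 was shared: in biotin negative brain, macrophages carried 528 ± 282 and neutrophils 181 ± 148, and in biotin positive brain, microglia stood at 276, 491 and 319 in the 3 samples with at least 20 such cells. Monocytes had the highest Ccrl2 of any class in biotin negative bone, at 110.0 ± 59.5, and neutrophils the highest in liver and lung of both sorts. Prok2 was highest in neutrophils in all 8 intracardiac groups, at 119 ± 82.4 to 375 ± 243, and B cells lay between 4.19 and 38.4.

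Shares of cells with at least 1 UMI gave the same picture for Cxcl2. Among biotin negative bone samples, 69.0% ± 12.8 (SD, n = 4) of neutrophils held a Cxcl2 UMI, and 41.3% ± 1.84 did after each cell was thinned to 1500 UMIs, which left out 155 of 6107 cells. In biotin negative lung, the shares were 99.1% ± 0.83 and 98.5% ± 1.29, with 134 of 4131 cells left out. B cells gave 28.5% and, thinned, 20.3% in bone, and 30.4% ± 18.3 and, thinned, 20.9% ± 16.2 in lung, with 120 of 846 and 100 of 1272 cells left out. Sample medians of depth were 4225 to 8864 UMIs for bone and 3099 to 3622 for lung neutrophils, and 1847 to 2562 and 1835 to 3296.5 for B cells. For Ccrl2 the thinned share of neutrophils was 5.23% ± 3.83 in biotin negative bone (11.8% unthinned) and 40.7% ± 14.3 in lung (55.3% unthinned), with B cells at 1.95% and 2.47%. For Cxcl3 it was 2.30% ± 1.36 in bone (5.26% unthinned) and 31.7% ± 11.7 in lung (39.0% unthinned), with B cells at 1.28% and 1.84%. For Cxcr2 it was 57.9% ± 4.41 in bone (90.9% unthinned) and 77.0% ± 9.19 in lung (90.2% unthinned), with B cells at 2.54% and 1.96%. For Prok2 it was 16.9% ± 10.3 (35.0% unthinned) and 20.0% ± 10.4 (30.1% unthinned), a difference within the SD, with B cells at 1.18% and 0.254%. For Cxcl1 it was 0.514% in bone (2.66% unthinned), below the 1.33% of B cells, and 4.38% in lung (6.30% unthinned), above their 0.729%.

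Between tissues, neutrophils of the biotin negative sorts carried more of the 3 ligands and of Ccrl2 in liver and lung than in bone, with log2 differences of 2.94 to 5.88, while those of Cxcr2 and Prok2 were 0.87 to 1.16. The comparisons set brain, liver and lung against the same 4 bone samples and are therefore not independent. Cxcl2 in neutrophils was at 1022, 879, 742 and 699 CPM in bone samples 1 to 4. The brain samples had 1222, 12183, 10206 and 4429, the liver samples 11592, 23702, 24410.0 and 16730.2, and the lung samples 21345, 23924, 25078 and 24582. Every sample of the other tissues lay above every bone sample, with brain sample 1 only just above. By edgeR's quasi-likelihood test with Benjamini-Hochberg adjustment over 8958 genes, the log2 fold change was 3.23 ± 0.52 (SE) in brain (adjusted p = 0.0274), 4.59 ± 0.55 in liver (adjusted p = 0.00055) and 4.87 ± 0.56 in lung (adjusted p = 0.000122). In brain the call was lost when bone sample 2, 3 or 4 or brain sample 2 or 3 was left out, with adjusted p up to 0.203 over the samples left out in turn. Cxcl2 was the 1 member called in brain, where 0.0447% of genes were called. With the sample number as a block, Cxcl3 (3.64, adjusted p = 0.0436) and Ccrl2 (2.86, adjusted p = 0.0492) were called in brain as well. The numbers did not pair brain with bone by their deviations (lowest r = -0.28). The block also called Cxcr2 in liver and Prok2 in liver and lung, as given below. Without the block 4 members were called in liver, all higher, where 13.3% of genes were called and 8.77% were higher. In lung 5 were called, all higher, where 43.6% of genes were called and 21.4% were higher. By unadjusted p under 0.05 the counts were 4, 5 and 5 in brain, liver and lung, beside 632, 3173 and 4638 of all 8958 genes. DESeq2 called 3, 4 and 5 members, for which the share of all genes is not given here.

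Cxcl3 followed the same order at lower counts. Bone neutrophils carried 9.26, 16.1, 30.3 and 5.52 CPM, brain neutrophils 9.83, 526, 383 and 60.5, liver neutrophils 83.2, 556, 514 and 98.9, and lung neutrophils 620.0, 747, 1301 and 997. Liver and lung did not overlap with bone, whereas brain sample 1 lay within the bone range. Against bone it was higher by 4.38 ± 1.01 (log2, SE) in liver (edgeR adjusted p = 0.0194) and by 5.88 ± 1.08 in lung (adjusted p = 0.000988). In brain the difference of 4.10 ± 0.99 did not pass (adjusted p = 0.18). The liver call was lost without bone sample 2 or 4 or liver sample 2, with adjusted p up to 0.0654. B cells of the same bone samples averaged 8.28 ± 9.14 CPM of Cxcl3 (SD, n = 4) and those of lung 37.8 ± 40.3, so the bone neutrophil values cannot be told apart from free RNA.

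Cxcl1 in neutrophils was the scarcest of the ligands in UMIs, at 2.31, 7.29, 3.09 and 0.211 CPM in samples 1 to 4 of bone. Brain samples had 1.93, 27.1, 21.2 and 3.83, liver samples 9.49, 31.8, 41.8 and 19.0, and lung samples 78, 88.8, 50.2 and 41.2. Liver and lung samples lay above every bone sample, and the brain samples overlapped with bone. Differences from bone were 4.34 ± 0.87 in lung (log2, SE, edgeR adjusted p = 0.00147), 2.94 ± 0.85 in liver (adjusted p = 0.0382) and 1.99 ± 0.86 in brain (adjusted p = 0.667). The liver call was lost without bone sample 1, 3 or 4 or liver sample 2, 3 or 4, with adjusted p up to 0.119.

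Cxcr2 differed less. Its level was 628, 443, 606 and 540.2 CPM in bone neutrophils and 274, 1130.5, 970.5 and 550.2 in those of brain. Liver samples had 704, 1152, 1223 and 806, and lung samples 787, 1050.0, 1306 and 1111. Liver and lung did not overlap with bone, and brain spanned the bone range. On the log2 scale, lung exceeded bone by 0.97 ± 0.36 (SE, edgeR adjusted p = 0.0395), while values of 0.87 ± 0.36 in liver (adjusted p = 0.0996) and 0.53 ± 0.36 in brain (adjusted p = 0.892) did not pass. With the sample number as a block, which paired liver with bone, the liver difference passed at 0.78 (adjusted p = 0.0482). The lung call was lost when any of the 4 bone samples or lung sample 2, 3 or 4 was left out (adjusted p up to 0.0974). It was also lost, at 0.60 (adjusted p = 0.133), when cells were clustered with all variable genes.

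Ccrl2 rose with the ligands. Bone neutrophils were at 67.4, 25.0, 18.7 and 10.6 CPM, brain at 49.9, 237, 363 and 72.2, liver at 778, 648, 499.5 and 295 and lung at 1173, 828, 534 and 588. The highest bone sample, number 1, lay below every liver and lung sample and above brain sample 1. B cells averaged 13.6 ± 9.91 CPM of Ccrl2 (SD, n = 4) in bone and 30.6 ± 13.7 in lung, so that the lower bone neutrophil values cannot be told apart from free RNA. The log2 fold change was 4.80 ± 0.67 (SE) in lung (edgeR adjusted p = 0.000342), 4.32 ± 0.66 in liver (adjusted p = 0.00201) and 2.79 ± 0.62 in brain (adjusted p = 0.131).

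Prok2 did not pass the test in any tissue without the sample number as a block. Bone samples had 48.9, 94.4, 258 and 146 CPM, brain samples 49.6, 276, 451 and 158, liver samples 136, 215, 610.3 and 229, and lung samples 106, 301, 439 and 275. Bone overlapped with each tissue, and sample 3 was the highest of each. Log2 fold changes were 0.86 ± 0.66 (SE) in brain (edgeR adjusted p = 0.91), 1.16 ± 0.67 in liver (adjusted p = 0.22) and 1.00 ± 0.67 in lung (adjusted p = 0.237). Sample numbers paired the samples of bone with those of liver and of lung, and with the number as a block Prok2 was higher by 1.19 in liver (adjusted p = 0.0096) and by 1.14 in lung (adjusted p = 0.00273). The 6 genes had a median log2 fold change of 2.39 in brain (all genes tested 0.00), 3.63 in liver (-0.00) and 4.57 in lung (-0.01).

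**Figure D2:**
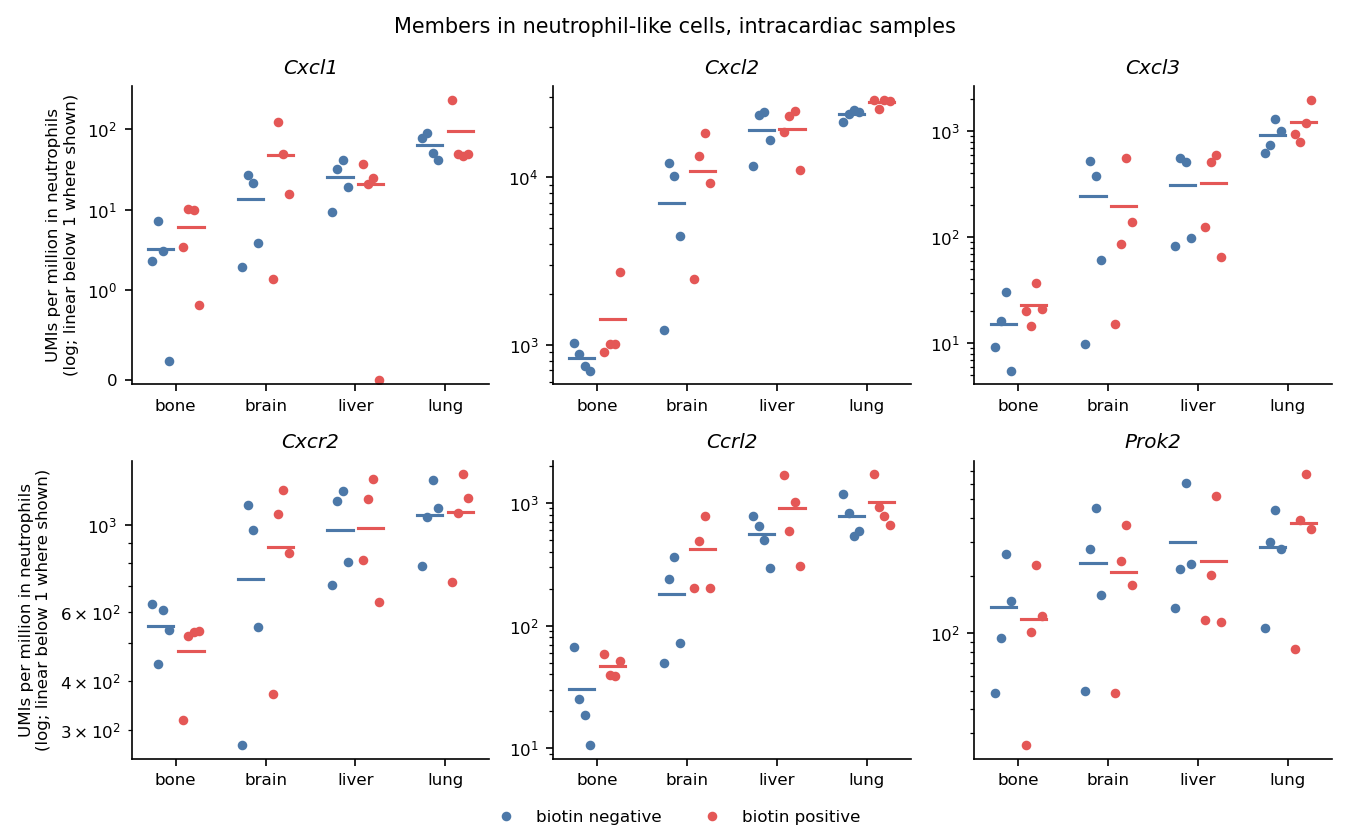
CPM of each gene in neutrophil-like cells (y axis, log scale, linear below 1 where 0 is shown) in the 4 intracardiac tissues (x axis); each point is 1 sample, blue biotin negative and red biotin positive, and bars are means of n = 4. Cxcl2 rises from 699 to 1022 in biotin negative bone to 21345 to 25078 in biotin negative lung, while the sorts of each tissue lie close together.

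Of the 28 pathway genes, 17 could be tested in these neutrophils. In liver 9 were higher and 0 lower, where 8.77% of all genes were higher, among them Il1b (log2 fold change 3.78 ± 0.56, SE, edgeR adjusted p = 0.00144), a cytokine known to induce the ligands, and the feedback genes Tnfaip3 (3.46 ± 0.68), Nfkbiz (2.77 ± 0.44) and Zfp36 (2.64 ± 0.35). In lung, where 21.4% of all genes were higher, 15 were higher and 1, the leukotriene receptor gene Ltb4r1, was lower (-1.13 ± 0.32). The largest lung values were those of Il1b (4.68 ± 0.58), Tnfaip3 (4.41 ± 0.71), Il1a (4.01 ± 0.90) and Csf3 (3.77 ± 1.07), the gene of the granulocyte growth factor G-CSF, whose call was lost without lung sample 2 (highest adjusted p = 0.0515). In brain 0 of 17 passed by edgeR, with 9 at an unadjusted p under 0.05, beside 632 of all 8958 genes. The 17 genes had medians of 0.85 (brain), 1.36 (liver) and 2.28 (lung), beside the same near-zero medians over all genes.

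The neutrophil class held 6 clusters whose mix differed between tissues. Cluster 15, led by Retnlg and Ly6g, and cluster 12, led by Ltf and Ngp, a granule protein stage, made up 37.9% and 31.9% of biotin negative bone neutrophils. In biotin negative lung, cluster 16, led by Hcar2, Ptgs2 and Acod1, and cluster 14, led by Cstdc4 and Stfa2, made up 40.7% and 39.6%. Cluster 16 was 1.34% of the neutrophils of biotin negative bone, 6.89% of those of brain and 26.2% of those of liver. Its name as neutrophils rests on 3 markers. Beside the tissue differences, the summed level of the 19 neutrophil markers fell from a mean of 487220 CPM in biotin negative bone to 323378 in lung, the 10 granulocyte precursor markers from 6385 to 924, and the 20 macrophage markers moved from 260 to 545, with 0 genes of any of these lists at 0 in either group. Their part in the tissue differences was not tested.

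Among clusters, Cxcl2, Cxcl3 and Ccrl2 had their highest mean in cluster 16 in each tissue of the negative sort. Their lowest means were in cluster 11 or 12, where cluster 11 had enough cells for a level only in bone and brain and cluster 12 in 1 sample of lung. In biotin negative bone, Cxcl2 averaged 96.2 ± 45.5 CPM (SD, n = 4) in the cycling cluster 11, 363 ± 209 in cluster 12, 1124 ± 351 in cluster 15, 7089 ± 2322 in cluster 14 and 7952 ± 694 in cluster 16 (n = 2). In lung, clusters 14 and 16 stood at 18741 ± 1863 and 33304 ± 5747 (n = 4 each). Cxcr2 was at 106 ± 29.1 in cluster 11 and 333 ± 35.4 in cluster 12 of bone, and higher in its other clusters, at 1163 ± 212 in cluster 15, 1067 ± 185 in cluster 14 and 1969 ± 237 in cluster 13. Cluster 14 of lung stood at 1019 ± 166, close to that of bone. Ccrl2 was highest in cluster 16 in all 4 tissues, from 557 ± 261 in bone (n = 2) to 1899 ± 898 in liver (n = 4). Prok2 differed in order, with 347 ± 246 in cluster 14 and 377 ± 228 in cluster 15 of bone but 33.5 ± 24.6 in cluster 13, which carried the most Cxcr2 of the bone clusters. Clusters come from the same cells, so these levels are a description.

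**Figure D3:**
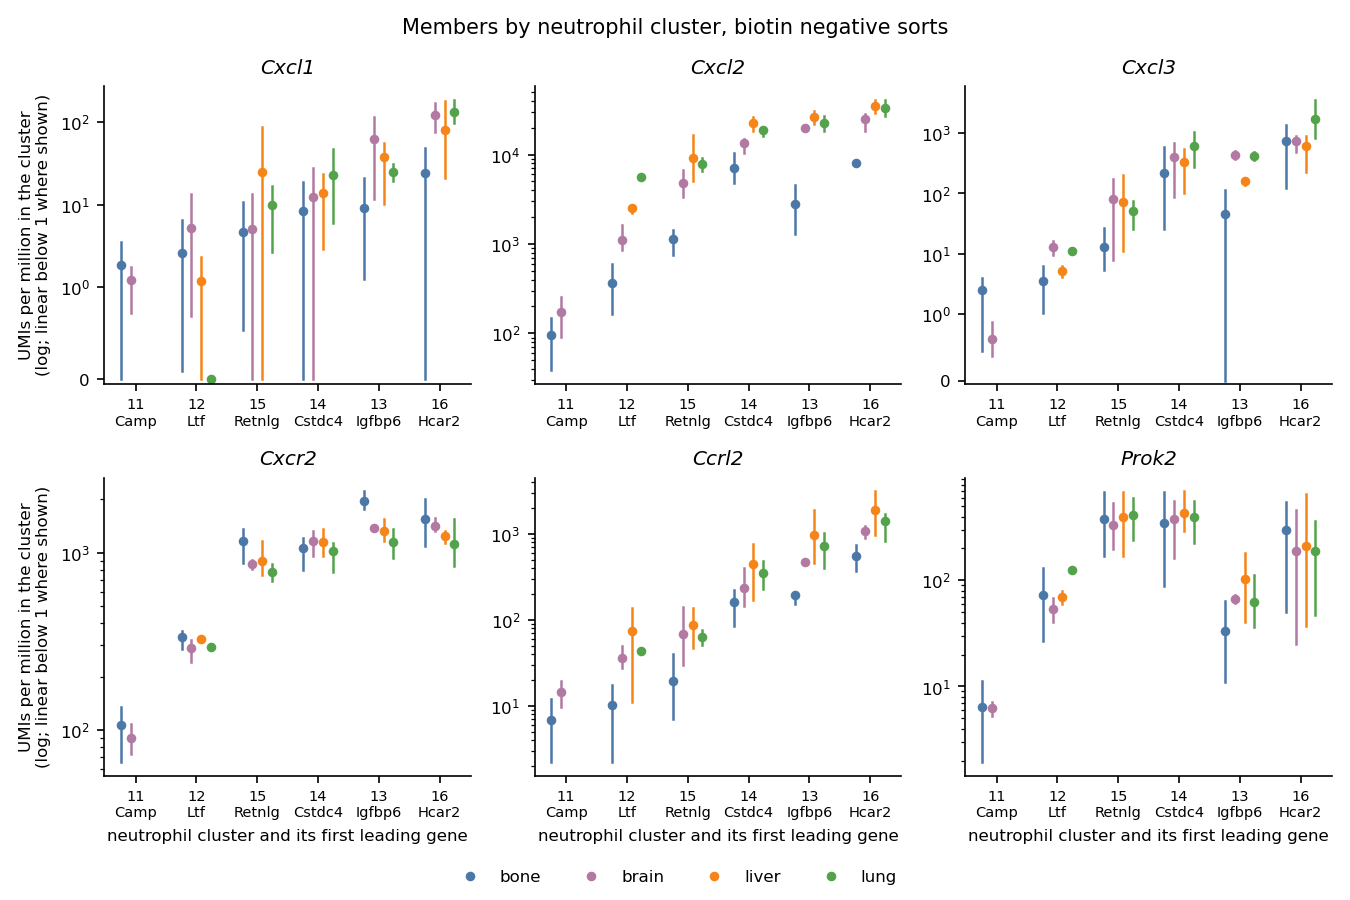
CPM of each gene (y axis, log scale, linear below 1 where 0 is shown) by neutrophil cluster and its first leading gene (x axis) in biotin negative samples; points are means over samples with at least 20 cells of the cluster and bars run from the lowest to the highest sample. Cxcl2 and Ccrl2 are highest in cluster 16, Cxcr2 is lowest in clusters 11 and 12 and, in bone, highest in cluster 13, and Prok2 is lower in clusters 11, 12 and 13 than in 14 and 15.

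When the test was repeated in cluster 14 alone, the neutrophil cluster with the most cells in the negative sorts, Cxcl2 was the only member called in liver and lung, and none was called in brain. Its log2 fold change was 1.68 in liver (edgeR adjusted p = 0.00082) and 1.4 in lung (adjusted p = 0.0038), and 0.88 in brain (adjusted p = 0.314). Ccrl2 was then 1.46 in liver (adjusted p = 0.142) and 1.14 in lung (adjusted p = 0.339), Cxcl1 0.28 and 1.27 (adjusted p = 0.979 and 0.564), and Cxcl3 0.50 and 1.4 (adjusted p = 0.892 and 0.519). Cxcr2 was -0.077 in lung, the opposite sign to that over all neutrophils (adjusted p = 0.952). Without cluster 16, the calls of the full class held except for Cxcl1 in liver (2.33, adjusted p = 0.112). Of the called pathway genes, the 4 with values named above as higher in liver and the 4 in lung were followed in cluster 14, where Csf3 gave no value, and the others were not. In liver the calls lost were Il1b (0.89, edgeR adjusted p = 0.0671), Tnfaip3 (0.88, adjusted p = 0.464) and Nfkbiz (0.62, adjusted p = 0.343), and in lung they were Tnfaip3 (1.16, adjusted p = 0.324) and Il1a (0.23, adjusted p = 0.967). Il1b in lung was still called there (1.30, adjusted p = 0.00805), as was Zfp36 in liver (1.77, adjusted p = 0.0125).

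**Figure D4:**
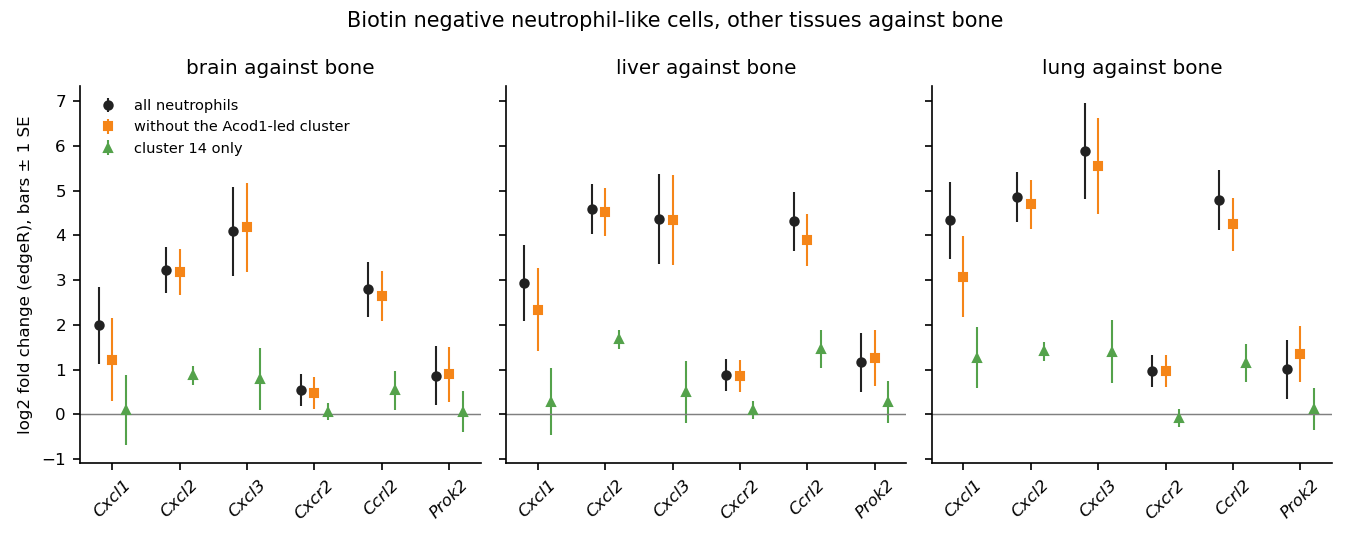
Log2 fold change of each gene in biotin negative neutrophil-like cells of brain, liver and lung against bone (y axis; bars ± 1 SE from edgeR), over all neutrophils (circles), without the Acod1-led cluster 16 (squares) and in cluster 14 alone (triangles). The ligands and Ccrl2 sit between 2.94 and 5.88 in liver and lung over all neutrophils and between 0.28 and 1.68 in cluster 14.

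Biotin positive and negative cells of the same intracardiac tissue were compared next, to ask whether labelled cells carry other levels of these genes. Over all cells, edgeR called 0 of the 6 genes in each tissue. In brain 3.06% of all genes were called (2.88% higher, 0.181% lower) and in lung 18.3% (11.5% higher, 6.8% lower), against 0% for bone and liver. In lung 4323 of 12331 genes had an unadjusted p under 0.05. By that measure, and likewise by DESeq2, the member count was 1 of 6 for lung and 0 elsewhere. That gene was Cxcl1, at 410.5, 272, 105 and 144 CPM in the biotin positive samples and 80.8, 98.3, 70.1 and 40.2 in the negative ones. The sorts did not overlap, and the positive sample was higher in 4 of 4 numbered pairs. They differed by 1.37 ± 0.42 (log2, SE) with an edgeR adjusted p of 0.0503, on the other side of the threshold from DESeq2 (1.36, adjusted p = 0.0101). With the sample number as a block it was 1.31 (edgeR adjusted p = 0.0214), although the numbers did not pair these samples by their deviations (lowest r = -0.0228). Over the samples left out in turn, the edgeR adjusted p ran from 0.0326 to 0.112, and it passed without lung negative sample 2 or lung positive sample 3 or 4. In simulated data on the lung counts of all cells, edgeR recovered 7.22% of genes changed by 1 on the log2 scale and 67.7% of those changed by 2. Alveolar macrophages were 14.7% to 81.2% of biotin positive lung cells and at most 0.834% of biotin negative ones, and the unnamed clusters 4.1% to 15.4% against 2.1% to 3.9%, and their part in this difference was not tested.

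In brain, Cxcl1 over all cells was at 3.90, 441, 157 and 32.2 in the biotin positive samples and 1.82, 37.0, 39.7 and 3.56 in the negative ones. Each positive sample was higher than its numbered partner, though the sorts overlapped. The log2 fold change was 2.64 ± 1.35 (SE, edgeR adjusted p = 0.302), and 2.25 with the sample number as a block (adjusted p = 0.0177), where the numbers paired the samples. Macrophages were 13% to 81.0% of the biotin positive brain cells against 1.0% to 7.7% of the negative ones, and their part was not tested. In bone and liver no log2 value over all cells passed, and they ran from -1.23 (Prok2) to 1.4 (Cxcl3) in bone and from -0.59 (Prok2) to 0.48 (Cxcl1) in liver. Members other than Cxcl1 did not pass in brain or lung under any alternative setting. Over these settings their values ran from -2.38 (Cxcl3) to 0.93 (Ccrl2) in brain and from -1.23 (Cxcr2) to 0.77 (Cxcl3) in lung. The median of the 6 genes was 0.35 for bone, -0.63 for brain, -0.45 for liver and -0.24 for lung, beside 0.01, -0.03, 0.02 and -0.04 for all genes tested.

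Within neutrophils edgeR called 0 of the 6 genes and 0% of all genes in each tissue. The members gave 0 at an unadjusted p under 0.05 as well, and DESeq2 gave 0. Log2 fold changes of positive against negative ran from -0.35 (Prok2) to 0.69 (Cxcl2) for bone and from -0.36 (Cxcl3) to 1.21 (Cxcl1) for brain. For liver they ran from -0.39 (Prok2) to 0.61 (Ccrl2), and for lung from 0.02 (Cxcr2) to 0.50 (Cxcl1). Cxcl2 in lung was the only member whose sorts did not overlap in neutrophils: 29116, 25683, 28922 and 28556 CPM in the positive samples against 21345 to 25078 in the negative ones. That difference was 0.23 ± 0.16 (SE, adjusted p = 1). With the sample number as a block, 2 members were called in brain, Ccrl2 at 1.33 (edgeR adjusted p = 0.00292) and Cxcl1 at 1.57 (adjusted p = 0.0376). The numbers did not pair these brain samples by their deviations (lowest r = 0.0894). In lung, where the numbers did pair the samples, 2 were called, Cxcl3 at 0.40 (adjusted p = 0.0269) and Ccrl2 at 0.32 (adjusted p = 0.0445). The share of all genes called with the block is not given here for either tissue. Cluster 16, the highest in Cxcl3 and Ccrl2, was 58.1% of the neutrophils of biotin positive and 40.7% of those of biotin negative lung, and its part in these calls was not tested. It was likewise 39.1% against 26.2% in liver and 20.0% against 6.89% in brain. In simulated data on the lung neutrophil counts, edgeR recovered 33.0% of genes changed by 1 on the log2 scale and 88.3% of those changed by 2.

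Within monocytes edgeR again called 0 of the 6 genes and 0% of all genes in each tissue. By unadjusted p under 0.05 there were 1 for bone, 1 for brain, 0 for liver and 3 for lung. Among all genes there were 411 of 8092, 440 of 8138, 208 of 8313 and 532 of 8034. DESeq2 called 1 member, for lung only. The gene called by DESeq2 was Cxcr2 in lung, where monocytes of the positive samples carried 62.5, 145, 227 and 144 CPM and those of the negative samples 17.7, 75.0, 30.1 and 44.9. Positive exceeded negative in 4 of 4 pairs, by 1.74 ± 0.43 on the log2 scale (SE, edgeR adjusted p = 0.362, and 0.037 by DESeq2). With the sample number as a block, which paired these samples, Cxcr2 (1.95, adjusted p = 6.67e-05), Prok2 (2.38, adjusted p = 0.00893) and Cxcl3 (1.63, adjusted p = 0.00483) were called. In brain monocytes the block called Cxcl2 (1.09, adjusted p = 4.84e-10), Cxcl3 (1.998, adjusted p = 9.78e-05) and Ccrl2 (1.21, adjusted p = 2.79e-05), in 3 numbered pairs whose positive samples held only 12 to 25 monocytes. The numbers did not pair these brain samples by their deviations (lowest r = 0.0904). The share of all genes called with the block is not given here for either tissue. B cells, which should lack Cxcr2, held 112 ± 184 CPM of it in biotin positive lung (SD, n = 3) and 28.7 ± 9.99 in the negative sort (n = 4), so the monocyte levels of this neutrophil gene cannot be told apart from background.

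Whether the difference between sorts differed among the 4 tissues was tested by an interaction term. For all cells edgeR called 0 of the 6 genes, where 1.15% of genes were called, and for neutrophils 0, where 0% were. At an unadjusted p under 0.05 both gave 0 members, and DESeq2 was not run for this test. Of the pathway genes, the sorts of lung differed over all cells in Cxcl12, a chemokine that holds neutrophils in marrow (3.22 ± 0.96, SE, edgeR adjusted p = 0.0467), and in its receptor gene Cxcr4 (-1.05 ± 0.21, adjusted p = 0.0125), out of 22 tested, where 18.3% of all genes were called. The Cxcl12 call was lost without lung negative sample 1, 3 or 4 or lung positive sample 1, 3 or 4, with adjusted p up to 0.136, and with the sample number as a block (2.92, adjusted p = 0.102). No pathway gene passed in the other all-cell, neutrophil or monocyte comparisons of sorts in the intracardiac arm.

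In bone of the iia-injection arm, the biotin positive cells carried more Cxcl1 and Ccrl2 and less Cxcr2 and Prok2 than the negative cells, when all cells were summed. With edgeR 4 of the 6 genes were called, 2 higher and 2 lower, where 50.2% of genes were called, 27% higher and 23.2% lower, so that the count stood near the background. Cxcr2 was at 112, 197, 177, 125, 184 and 133 CPM in the negative samples 1 to 6 and at 49.0, 52.8, 49.9, 63.3, 25.3 and 63.6 in the positive ones. The sorts did not overlap, and the log2 fold change was -1.86 ± 0.23 (SE, edgeR adjusted p = 4.59e-05). The positive sample was lower in 6 of 6 pairs. Pairs in this arm are matched by number only. Their deviations did not all correlate above 0.1 (lowest r = 0.0778 for all cells and 0.00535 for neutrophils). Neutrophils were 38.7% to 53.6% of the negative cells and 8.7% to 28.5% of the positive cells, and their part in this difference was not tested. Within neutrophils, Cxcr2 was in the other direction, at 363 ± 70.3 in the negative and 533 ± 84.5 in the positive samples (SD, n = 6). The clusters of these neutrophils differed between the sorts. Clusters 7 and 13, the highest in Cxcr2, were 11.9% and 22.2% of the negative and 20.6% and 30.4% of the positive neutrophils. Cluster 7 stood at 1191 ± 88.4 in the negative (n = 6) and 1123 ± 178 in the positive sort (n = 3), and cluster 13 at 711 ± 44.2 (n = 6) and 856 ± 174 (n = 5), and the part of the mix was not tested.

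Prok2 was at 4.74, 10.1, 8.84, 21.2, 16.1 and 24.5 in the negative samples and 1.82, 3.01, 2.47, 10.2, 2.01 and 15.6 in the positive ones, lower in the positive sample of 6 of 6 pairs but overlapping. The log2 fold change was -1.58 ± 0.60 (SE, edgeR adjusted p = 0.0433), a call lost without negative sample 2, 3, 4, 5 or 6 or positive sample 1, 2, 3 or 5 (adjusted p up to 0.0961). Cxcl1 went from 7.31, 17.8, 15.2, 13.3, 7.75 and 4.36 in the negative samples to 28.7, 202, 216, 1.86, 14.2 and 14.8 in the positive ones. Samples 2 and 3 were far above the other positive samples, and sample 4 was below its partner. The log2 fold change of 2.66 ± 0.89 (SE, adjusted p = 0.0252) was lost without negative sample 1, 5 or 6 or positive sample 2 or 3 (adjusted p up to 0.0628). Ccrl2 was at 5.25, 13.1, 6.72, 3.95, 4.98 and 3.18 in the negative and 15.6, 55.0, 62.5, 2.79, 7.53 and 10.3 in the positive samples, again highest in positive samples 2 and 3. Its fold change of 1.85 ± 0.66 (log2, SE, adjusted p = 0.0336) was lost without negative sample 1, 3, 4, 5 or 6 or positive sample 2 or 3 (adjusted p up to 0.0925).

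Cxcl2 and Cxcl3 did not pass without the sample number as a block. With the block both were called, although the numbers did not pair the samples of this arm by their deviations. Cxcl2 was higher in the positive sample of 6 of 6 pairs, at 287, 1753, 1563, 46.5, 139 and 104 against 54.5, 316, 141, 22.7, 94.5 and 74.0, and differed by 2.25 ± 0.92 on the log2 scale (SE, edgeR adjusted p = 0.0574, and 0.0221 by DESeq2). Cxcl3 was at 7.04, 456, 134, 0, 6.34 and 0 against 1.24, 41.8, 7.59, 0.395, 2.42 and 0.766, where the counts of 0 allow up to 1.4 and 0.505 CPM, and differed by 3.32 ± 1.59 (adjusted p = 0.0996). Both were highest in positive samples 2 and 3, the samples in which macrophages were 51.8% and 36.0% of cells against 4.0% to 13% in the other positive samples. The part of macrophages in these differences was not tested. The median log2 fold change of the 6 genes was 2.05, beside 0.08 for all genes tested.

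**Figure D5:**
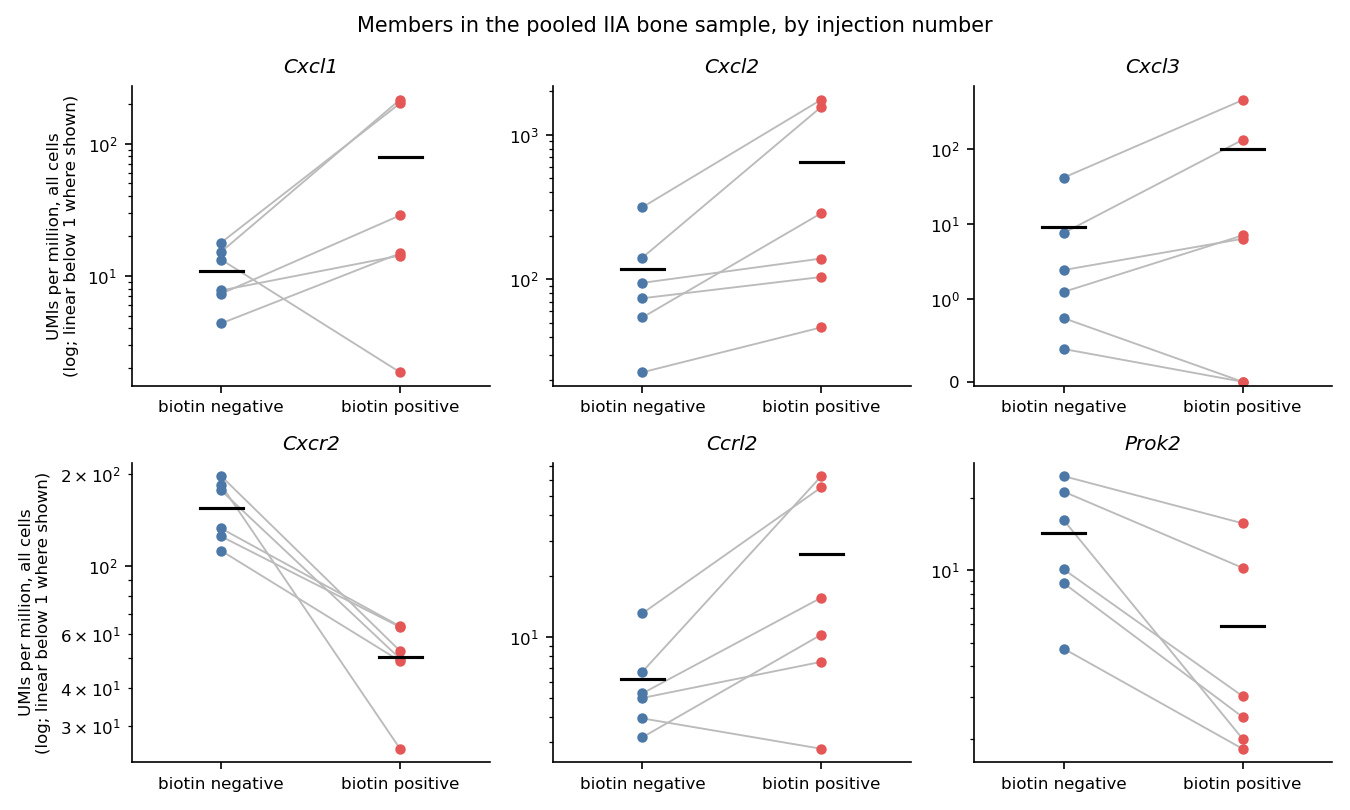
CPM of each gene over all cells (y axis, log scale, linear below 1 where 0 is shown) in the biotin negative and biotin positive samples of the pooled IIA bone library (x axis); lines join samples with the same number and bars are means of n = 6. Cxcr2 and Prok2 go down in 6 of 6 pairs, and positive samples 2 and 3 carry the highest Cxcl1, Cxcl2, Cxcl3 and Ccrl2.

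Neutrophils held a mean of 82.3% ± 4.49 of the Cxcr2 UMIs and 84.8% ± 8.22 of the Prok2 UMIs in the negative IIA samples (SD, n = 6). In the positive samples they held 54.3% ± 24.4 and 53.4% ± 22.4, beside 30.1% and 34.6% in unnamed clusters. Cells not named neutrophils held most of the ligand UMIs in IIA bone, and for Cxcl2 they include the unnamed cluster led by Acod1 and Hcar2, whose class is undecided. That cluster carried 168 ± 74.7 and 252 ± 87.0 CPM of Cxcr2 in the negative and positive sorts (SD, n = 5 each), and neutrophil cluster 4 carried 227 ± 33.1 in the negative sort (n = 6). Stromal cells held a mean of 73.1% of the Cxcl1 UMIs in the negative and 52.8% ± 31.6 in the positive sort (SD, n = 6), and macrophages 16.4% and 45.3% ± 31.0. Over the pooled UMIs of the positive sort the order was the other way, with 61.3% in macrophages and 35.7% in stromal cells. Stromal cells were at 309, 445 and 290 CPM of Cxcl1 in the 3 positive samples with at least 20 of them, and macrophages at 178, 273, 355, 427 and 75.9 in the 5 positive samples with at least 20. Macrophages of the negative samples were at 7.01, 90.1, 111, 53.6 and 68.8, overlapping with the positive ones. Neutrophils carried 0.776 ± 0.49 CPM of Cxcl1 in the negative sort, below the 1.39 ± 3.02 of B cells (SD, n = 6 each). Neutrophils held 30.5% of the Cxcl2 UMIs in the negative and 3.71% in the positive sort, where unnamed clusters held 51.2% and macrophages 43.1%. For Cxcl2, macrophages stood at 1380 ± 601 and 2093 ± 769 (n = 5 each) in the negative and positive sorts and an unnamed cluster led by Acod1 and Hcar2 at 1934 ± 2286 and 5832 ± 4856 (n = 5 each). The cells named neutrophils were at 71.1 ± 31.5 and 83.4 ± 40.4 (n = 6 each), beside 7.47 ± 3.76 in B cells of the negative sort.

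Within IIA neutrophils, 3 of the 6 genes had enough counts to be tested and edgeR called 0 of them, where 0% of genes were called. At an unadjusted p under 0.05 there was 1, beside 650 of all 7320 genes, and DESeq2 called 0. That 1 was Cxcr2, higher in the positive sample of 6 of 6 pairs (0.50 ± 0.13, SE, edgeR adjusted p = 0.234). Cxcl2 differed by 0.15 ± 0.28 (adjusted p = 0.924) and Prok2 by 0.69 ± 0.52 (adjusted p = 0.736). With the unnamed Acod1-led cluster joined to the neutrophils, 3 members were called, Cxcl2 among them at 4.12 (adjusted p = 0.00172), and that cluster held 2 neutrophil markers among its leading genes, too few for a name. With granulocyte precursors joined, Cxcl2 (-2.94), Cxcr2 (-2.60) and Prok2 (-3.00) were called in the opposite direction. The neutrophils numbered 680 in the positive and 8137 in the negative sort. In samples with at least 20 of them, precursors numbered 1362 and 233, and cells of the Acod1-led cluster 676 and 474. Both joined sums thus also carry the mix of cells, whose part was not tested.

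Of the pathway genes, 18 were tested over all IIA cells, and 3 were higher and 5 lower, where 27% and 23.2% of all genes were, so that the count stood near the background. Higher in the positive sort were the platelet chemokine Ppbp (7.48 ± 1.26, log2, SE, edgeR adjusted p = 0.000455), Cxcl5 (4.01 ± 1.08, adjusted p = 0.0086) and Cxcl12 (3.85 ± 1.21, adjusted p = 0.0192), of which Ppbp and Cxcl5 are CXCR2 ligands. The Cxcl12 call was lost without positive sample 2 (adjusted p = 0.061). The 5 lower genes included the formyl peptide receptor gene Fpr2 (-2.24 ± 0.24, adjusted p = 1.96e-05), and the others were Fpr1, Ltb4r1, Csf3r and Cxcr4. The median of the list was -0.40. In IIA neutrophils 0 of 14 passed by edgeR, with 3 at an unadjusted p under 0.05, beside 650 of all 7320 genes.

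Across 201 sums of class and sample in the intracardiac arm (32 samples, 14 classes), the genes whose log2 level was most like that of each member were listed among 7977 genes, as a description, since sums share samples, depth and free RNA. Il1b was nearest to Cxcl2 (Pearson r = 0.86), followed by Mcl1 and Cd14. Cxcl2 itself was nearest to Cxcl3 (r = 0.80), followed by Acod1 and Clec4d. Retnlg was nearest to Cxcr2 (r = 0.90) and to Prok2 (r = 0.88), with Hdc and S100a9 next for Cxcr2 and Mmp9 and Ly6g next for Prok2. Nfkbia was nearest to Ccrl2 (r = 0.82), ahead of Cd14 and Il1b. Cxcl1 had the weakest best match, Ddx3x at r = 0.66, followed by Slc11a1 and Hmox1. Among the members, the receptor gene Cxcr2 and Prok2 went together at r = 0.80 and Cxcl1 and Prok2 least at r = 0.21.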

How the data were processed

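Each library was read as UMI counts per gene and barcode, the matrices that the authors deposited from Cell Ranger 6.1.2 (32 intracardiac matrices, split by sample before deposit) or 7.1.0 (1 pooled IIA matrix), per the file headers, with the mm10 build per the submitters' processing notes. How reads shared by the related Cxcl1, Cxcl2 and Cxcl3 genes were counted is not given in the sources used here. Barcodes under 500 UMIs or 200 genes, or with over 15% of UMIs from mitochondrial genes, were left out, which kept 55366 of 57065 and 22362 of the 22685 IIA cells assigned to 1 hashtag (26666 barcodes) by a top count of at least 10 and at least 3 times the next. Hashtag names came from the authors' deposited table.

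Cells were clustered with scanpy 1.11.5 (2000 variable genes less the listed genes among them, 22 in the intracardiac and 21 in the IIA arm, 30 components, 15 neighbours, Leiden resolution 1) and named from marker lists, with no name under 3 markers. Doublets were not removed in the main values, and an alternative left out the 5% highest Scrublet scores. UMIs were summed per sample and class with at least 10 cells for tests and 20 for levels, which are given as mean ± SD. Sums were tested with edgeR 4.0.16 (TMM, quasi-likelihood test, two-sided, Benjamini-Hochberg over all genes tested, call at 0.05), and with DESeq2 1.42.0 in R 4.3.3 as an alternative. Each test used only the samples compared, except that the 3 tissue comparisons shared 1 fit. Other alternatives were RLE factors, no low-count filter, the sample number as a block, each sample left out, clustering with all variable genes, 30 cells, and granulocyte precursors added, and after seeing the data cluster 16 left out, the largest cluster alone, and the Acod1-led IIA cluster added. Sample numbers were taken to pair samples where every same-numbered pair's deviations correlated above 0.1, as in biotin negative liver and lung against bone (lowest r = 0.118 and 0.16), neutrophils of bone, liver and lung, monocytes of bone, liver and lung, and all cells of bone, brain and liver. Limits for counts of 0 are 3 counts and cover counting error only. All members and 28 pathway genes were named by their lists, with the largest pathway values given, and both lists were chosen with earlier results of these data known. The test was tried on simulated counts.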

Additional observations from a re-analysis of the deposited data

Results flagged for a closer look

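In 13 of 120 groups of 4 or 6 samples, 1 sample stood apart by Dixon's criterion, and chance would give about 6, or 1 in 20. Among sums over all cells, Cxcl1 was at 75.3 CPM in bone positive sample 2 (others 0.438 to 12.6) and Cxcl3 at 314 in liver positive sample 3 (others 49.7 to 65.4). Ccrl2 was at 337 in liver negative sample 2 (others 180.2 to 192). In the IIA arm, negative sample 2 was highest for Ccrl2 (13.1, others 3.18 to 6.72) and Cxcl3 (41.8, others 0.395 to 7.59), and positive sample 2 for Cxcl3 (456, others 0 to 134). Among neutrophils, Cxcl1 was at 231 in lung positive sample 1 (others 46.0 to 49.97), and Cxcl2 at 2726 in bone positive sample 4 (others 905 to 1012). Lung positive sample 2 was lowest for Cxcl2 (25683, others 28556 to 29116), and bone positive sample 1 was lowest for Cxcr2 (317, others 521 to 536). IIA negative sample 2 was highest for Cxcl2 in neutrophils (133, others 48.4 to 70.8). IIA positive sample 5 held 1.86 CPM each of Cxcl1 and Cxcl3 in neutrophils, where the other samples were at 0, but this is 1 UMI of each gene in 226 cells, and the counts of 0 allow 6.36 to 28.5 CPM, so the sample cannot be told apart from the others.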

How the results depend on the processing

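Of 716 member values under other settings, 634 kept their direction and their side of the threshold, 12 lost a call, 37 gained one and 33 changed sign. Of 812 with 1 sample left out, 695 kept both, 42 lost a call, 10 gained one and 65 changed sign. Of 104 pathway gene values under other settings, 98 kept both and 6 lost a call. The cause was not tested.
Numbers of members called, where they moved by over 1.5 times, were as follows. For brain against bone, 3 without the filter, 3 with the replicate block, 3 by DESeq2, 2 with all variable genes, 0 with granulocyte precursors and 0 in the largest cluster, against 1. In liver and lung against bone, 1 each in the largest cluster. For all cells, 1 in brain with the block, and 1 in lung without the filter, with the block and by DESeq2, against 0. For monocytes, 3 in brain and in lung without the filter or with the block, and 1 in lung by DESeq2. For neutrophils, 2 in brain and 2 in lung with the block. For IIA neutrophils, 1 without the filter, 1 with the block, 3 with granulocyte precursors and 3 with the Acod1-led cluster. In IIA all cells the block called 5 (Cxcl2 and Cxcl3 were gained, and Cxcl1 was lost at 1.67, adjusted p = 0.0817 by edgeR), DESeq2 5 and no filter 3, against 4. Where numbers paired samples, the block changed no call other than those given above.
Values of the opposite sign to the main one, in log2, none of them called except the IIA ones with precursors, were these. Block: Cxcl2 0.16 in brain all cells; Cxcl1 0.56, Cxcl3 0.46, Cxcr2 0.040 and Prok2 0.81 in liver monocytes; Prok2 0.46 in brain monocytes; Cxcl3 0.16 in brain, Cxcl1 0.027 and Cxcl3 0.00079 in liver and Cxcr2 -0.013 in lung neutrophils. Scrublet: Prok2 0.042 in lung all cells, Cxcr2 -0.25 and Prok2 0.36 in brain and Cxcl3 0.091 in liver monocytes. At least 30 cells: Cxcr2 -0.079 and Prok2 -0.045 in bone monocytes. DESeq2: Cxcl3 1.01 and Prok2 1.63 in liver monocytes. No filter: Prok2 0.020 in liver monocytes and Cxcr2 -0.0048 in lung neutrophils. RLE: Cxcl3 0.00098 in liver neutrophils. All variable genes: Cxcl2 0.072, Cxcl3 0.13 and Cxcr2 0.040 in liver and Cxcl2 -0.088 in IIA neutrophils. Precursors added: Cxcl2 -2.94, Cxcr2 -2.60 and Prok2 -3.00 in IIA and Ccrl2 -0.19, Cxcl1 -0.17, Cxcl2 -0.19 and Cxcl3 -0.54 in bone neutrophils. Largest cluster: Cxcr2 -0.077 in lung against bone.
With samples left out in turn, member counts ranged from 0 to 3 in brain, 2 to 4 in liver and 4 to 5 in lung against bone, from 0 to 1 in lung all cells and from 1 to 5 in IIA all cells. Signs changed, with no call, for these ranges. All cells: bone Ccrl2 -0.11 to 0.55, Cxcl1 -0.62 to 2.08, Cxcl2 -0.0021 to 0.79; brain Ccrl2 -0.083 to 0.93, Cxcl2 -0.62 to 0.51; liver Ccrl2 -0.14 to 0.32, Cxcl3 -1.57 to 0.57; lung Prok2 -1.21 to 0.62. Monocytes: bone Ccrl2 -0.24 to 0.56, Cxcl1 -1.77 to 1.32, Cxcr2 -0.22 to 0.48, Prok2 -0.045 to 2.94; brain Cxcr2 -0.36 to 0.99, Prok2 -0.65 to 0.44; liver Cxcl1 -1.68 to 0.033, Cxcl2 -0.78 to 0.44, Cxcl3 -1.44 to 1.43, Cxcr2 -1.24 to 0.16, Prok2 -7.24 to 2.29; lung Ccrl2 -0.092 to 0.32, Cxcl1 -0.73 to 0.67. Neutrophils: bone Prok2 -0.86 to 0.20; brain Cxcl3 -1.78 to 0.28, Cxcr2 -0.16 to 0.41, Prok2 -0.88 to 0.26; liver Cxcl1 -0.53 to 0.17, Cxcl2 -0.29 to 0.13, Cxcl3 -0.57 to 0.41, Cxcr2 -0.31 to 0.11, Prok2 -1.24 to 0.30; lung Cxcl1 -0.40 to 0.72, Cxcr2 -0.22 to 0.21, Prok2 -0.14 to 0.84; IIA Cxcl2 -0.12 to 0.39, Prok2 -0.10 to 0.96.
Sample numbers did not pair the samples, by the correlation of deviations, in lung all cells, brain neutrophils, brain monocytes, brain against bone and the IIA comparisons, although the intracardiac numbers mark shared libraries. Monocytes of brain and liver could not be tested with at least 30 cells, and DESeq2 was not run for the interaction. All 48 neutrophil levels moved by less than 1 SD with at least 50 cells, and 8 of 48 shares moved by more with 1000 UMIs. Depth limits Cxcl1 in neutrophils, where a count of 0 allows up to 8.20 CPM in liver positive sample 4 and 6.36 to 28.5 CPM in 5 IIA positive samples.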
